A study of Mus musculus with 9 samples.

Results

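Heat shock proteins and their co-chaperones were represented by 116 probes for 87 genes, of 20018 genes named on the array. Members were taken by name alone: genes of the Hspa, Hspb, Hspd, Hspe, Hsph and Hsp90 families, the Dnaja, Dnajb and Dnajc families, the Cct genes, Bag1 to Bag6, and Hsf1, leaving out Hspbap1. No measured value entered the rule, but it was chosen with earlier results of these data known. Of the 87 members, 78 were among the 14506 genes tested, because a probe for them cleared the background in every replicate of 1 group or more. The brightest such probe stood for its gene. A member that passed this filter only through 1 group had to be bright there, and the 9 that did not pass are given apart.

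Chaperones bind proteins that are not yet folded or have lost their fold. Hsp70 proteins hold such clients in a cycle driven by ATP, which J-domain proteins (the Dnaja, Dnajb and Dnajc families) start and nucleotide exchange factors, among them BAG and Hsp110 proteins, end. Hsp90 matures kinases and receptors, small heat shock proteins keep unfolded clients from aggregating, and the ring complex TRiC, built from Cct subunits, folds actin and tubulin. In erythroblasts, which fill themselves with globin, Hsp70 and Hsp90 are known to bind the heme-regulated kinase Eif2ak1, which holds back globin translation when heme is short. Hsf1 is the transcription factor that switches on many of these genes after heat or other protein stress.

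The samples were erythroblasts, the nucleated precursors of red cells, of the gate called subset II in the labels, isolated by sorting marrow of C57BL/6J mice that are wild type (WT) and labelled female. They were from mice on low iron diet for 7 weeks after weaning, on low iron diet for 3 weeks after weaning, or on normal diet, with 3 biological replicates in each group. The gate's surface markers, the age of the mice on normal diet, and whether a sample came from 1 animal or a pool were not given in the sources used here, and p-values here cover only the spread between these samples. Total RNA was amplified, coupled to Cy3 and read on arrays with 1 colour and 62976 spots each. A level is the log2 processed signal of a probe over its array's 75th percentile, so levels of different genes cannot be compared. A difference is given as log2 ± limma's standard error (3 arrays a group), and was called at an adjusted p under 0.05 over all 14506 genes.

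Several facts of the arrays touch every result. Each group lay on a slide and scan of its own, so slide and diet cannot be told apart. The 75th percentile of signal was 791.7 to 1087 on the 7 week arrays, 1677 to 1837 on the 3 week arrays and 1499 to 1616 on the normal diet arrays, while spike-in controls stood at a log2 level of 4.97 ± 0.47, 1.34 ± 0.24 and 1.08 ± 0.62 in those groups (SD, n = 3 each). The male-linked gene Eif2s3y had levels of 5.12 and 4.82 on normal diet replicates 1 and 2 and of -3.78 on replicate 3, so those replicates, 1 and 2, go against the label female. Replicate 3 is read below as fitting its label, but Eif2s3y was still flagged well above background on it, unlike on any low iron array. All 10 erythroblast markers were well above background in each group. The summed level of 10 monocyte and macrophage markers was 4.54 to 4.88 at 7 weeks, 6.1 to 6.6 at 3 weeks and 5.27 to 5.86 on normal diet, and 4 of the 10 rose at 3 weeks and 4 fell at 7 weeks against normal diet. In sorted bulk cells, fewer cells of a type and less RNA per cell cannot be told apart.

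Against normal diet, members fell more often than they rose at both times. At 7 weeks 29.5% of all genes tested were called in either direction, and at 3 weeks 11.4%. At 7 weeks, 19 of 78 members fell (24.4%, against 18.7% of all genes tested) and 4 rose (5.13%, against 10.7%). At 3 weeks, 10 fell (12.8%, against 7.88% of all genes) and 0 rose, where 3.52% of all genes did. With limma's unadjusted p under 0.05, 22 members were lower and 3 higher at 3 weeks, and the share of all genes at that p is not given here. The median difference of the members was -0.41 at 7 weeks and -0.42 at 3 weeks, beside -0.26 and -0.17 over all genes tested. The shares of members that fell were above the background in both comparisons. No set test was run on them. Counts by class further on are to be read beside the shares of all genes for the same comparison, and no class was tested as a set.

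The comparison of 7 weeks with 3 weeks shares the same arrays. Both times are counted from weaning, so age and slide differ along with time on the diet and cannot be told apart from it. Of all genes tested 37.2% were called here. Among the members, 14 were higher (17.9%, against 17.6% of all genes) and 15 lower (19.2%, against 19.6%), both near the background. The median difference was -0.23 for the members and -0.13 for all genes tested. The calls fell into few patterns. Bag1, Cct8l1, Dnajc14, Dnajc19, Dnajc30 and Hspb11 fell at 3 weeks, missed the threshold at 7 weeks, and were higher at 7 than at 3 weeks. Without scaling none of these 6 passed for 7 against 3 weeks, with differences of 0.13, 1.05, 0.75, 0.89, 0.18 and 0.49, and at 3 weeks only Hspb11 of them still passed. Bag2, Bag4, Cct4, Dnaja2, Dnajb3, Dnajc3, Dnajc21, Dnajc25, Dnajc28 and Hspa4l passed at 7 weeks only of the comparisons with normal diet and were also lower than at 3 weeks. Dnajc10, Dnajc24 and Hspb6 fell at both times, and 38 members passed in none of the 3 comparisons.

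**Figure D1:**
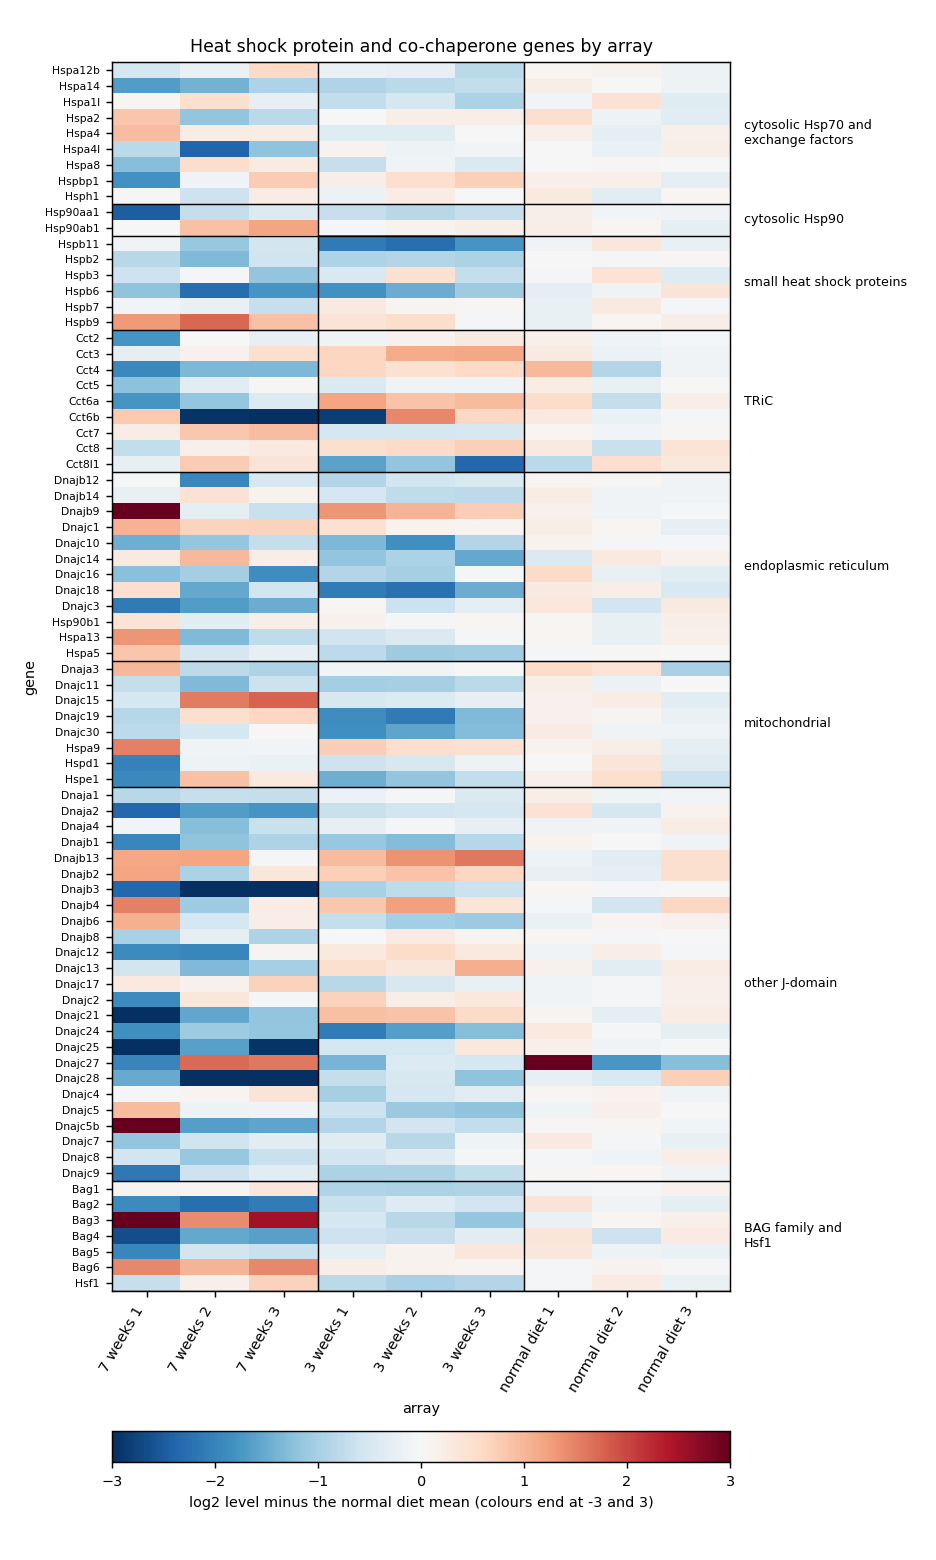
Each row is 1 of the 78 members tested and each column 1 array, and the colour is the log2 level minus the mean of that gene on the normal diet arrays. The classes by role run down the page, Bag3 is red on the 7 week arrays, and 7 week replicate 1 differs in colour from the other 7 week arrays for many members.

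These counts moved with single arrays and with the scaling. At 3 weeks the 10 lower members became 1, 0 and 5 without 3 week replicates 1, 2 and 3. Of all genes, 1.95%, 1.05% and 4.21% were then lower. Without normal diet replicates 1, 2 and 3 they became 2, 0 and 1, beside 2.57%, 0.8% and 1.59% of all genes. Without 7 week replicate 1 they became 22, with 4 higher, beside 15.9% and 8.26% of all genes. At 7 weeks, 9 fell and 2 rose without normal diet replicate 1, beside 8.02% and 3.97% of all genes. Without normal diet replicate 3, 11 fell, beside 9.54%. For 7 against 3 weeks, 9 were higher and 9 lower without 3 week replicate 1, beside 13.2% and 14.0%. Bag2, Bag3, Bag4, Bag6, Dnaja2, Dnajb3, Dnajc25, Dnajc28, Dnajc3, Hspa14 and Hspb6, 11 of the 23 members called at 7 weeks, kept their call whichever of the 9 arrays was left out. None of the 10 calls at 3 weeks did.

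With normal diet replicate 3, which fits its label, as the only control, no member passed limma's threshold at either time, and the lone array was taken to vary like the other groups. All 23 differences called at 7 weeks and all 10 called at 3 weeks kept their sign, with 16 and 8 of them at an unadjusted p under 0.05. The scaling also counted. Without any scaling the median of all genes tested was -1.07 at 7 weeks against normal diet, where 37 members then fell and 1, Bag3, rose, beside 45.8% of all genes lower and 3.13% higher. Every direction given here is relative to the array's 75th percentile. For 7 against 3 weeks, quantile normalization gave 12 members higher and 25 lower (15.6% and 22.1% of all genes), and no scaling 1 and 39 (5.69% and 46.9% of all genes). For 3 weeks against normal diet, quantile normalization gave 2 higher and 7 lower (4.24% and 5.57% of all genes), and no scaling 1 and 1 (3.39% and 3.27%).

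Promoter sequences of all members with a window were searched for motifs of the stress pathways, to set the sequence beside the values. Windows of 250 bases before to 50 after the start, from RefSeq on GRCm38.p6, were held for 70 of the 87 members. Searched on both strands, the heat shock element bound by Hsf1 (the units GAA, TTC and GAA, each 2 bases of any kind apart) was found for Hspd1, Hspe1, Dnajb6 and Hsph1, and in 0.603% of all 32851 windows. The endoplasmic reticulum stress element (CCAAT and CCACG, 9 bases of any kind apart) was found for Hspa5, Hsp90b1 and Dnajc3, and in 0.119%. Hspd1 and Hspe1 lie head to head, and their matching windows share 285 bases. In Hsph1 the match lies just after the start and its sequence is not shown. The Hspd1 window is covered by that of Hspe1 for most of its length and is not printed either. The 250 bases before the start are printed 5′ to 3′ on the gene's strand for the other 5, and for Bag3, the member with the largest rise at 7 weeks, for which neither motif was found in this window. Capitals mark the letters of a match to either motif, and overlapping matches run together.
Hspe1 promoter (chr1:55087898-55088147, + strand): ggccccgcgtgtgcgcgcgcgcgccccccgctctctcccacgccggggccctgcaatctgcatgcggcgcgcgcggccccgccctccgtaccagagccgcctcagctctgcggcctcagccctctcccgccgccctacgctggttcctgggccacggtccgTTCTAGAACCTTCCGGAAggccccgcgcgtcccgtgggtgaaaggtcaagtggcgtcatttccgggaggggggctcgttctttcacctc
Dnajb6 promoter (chr5:29735648-29735897, + strand): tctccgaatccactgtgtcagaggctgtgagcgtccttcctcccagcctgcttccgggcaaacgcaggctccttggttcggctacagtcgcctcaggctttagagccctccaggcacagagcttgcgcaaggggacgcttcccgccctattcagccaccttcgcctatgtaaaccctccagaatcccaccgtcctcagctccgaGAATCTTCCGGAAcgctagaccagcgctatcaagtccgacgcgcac
Hspa5 promoter (chr2:34771840-34772089, + strand): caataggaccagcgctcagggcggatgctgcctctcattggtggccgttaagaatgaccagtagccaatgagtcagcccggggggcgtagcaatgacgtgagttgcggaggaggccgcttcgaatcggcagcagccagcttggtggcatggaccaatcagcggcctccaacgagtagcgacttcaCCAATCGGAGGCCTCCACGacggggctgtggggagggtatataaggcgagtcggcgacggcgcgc
Hsp90b1 promoter (chr10:86705445-86705694, - strand): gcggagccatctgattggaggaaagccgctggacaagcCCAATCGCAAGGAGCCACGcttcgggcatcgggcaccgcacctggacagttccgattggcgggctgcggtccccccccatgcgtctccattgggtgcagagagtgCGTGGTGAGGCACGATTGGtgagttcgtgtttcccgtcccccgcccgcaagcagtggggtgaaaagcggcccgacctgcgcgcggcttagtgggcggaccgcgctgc
Dnajc3 promoter (chr14:118937682-118937931, + strand): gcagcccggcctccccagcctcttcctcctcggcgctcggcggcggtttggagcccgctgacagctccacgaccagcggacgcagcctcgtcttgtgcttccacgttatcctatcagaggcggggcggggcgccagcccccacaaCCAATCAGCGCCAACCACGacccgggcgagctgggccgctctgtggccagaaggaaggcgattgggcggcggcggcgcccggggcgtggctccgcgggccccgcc
Bag3 promoter (chr7:128523333-128523582, + strand): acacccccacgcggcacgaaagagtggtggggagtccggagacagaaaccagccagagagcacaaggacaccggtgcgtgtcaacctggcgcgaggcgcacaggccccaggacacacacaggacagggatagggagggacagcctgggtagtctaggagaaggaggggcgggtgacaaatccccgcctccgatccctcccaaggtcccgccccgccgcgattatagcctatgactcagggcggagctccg

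The BAG proteins, which release clients from Hsp70, moved apart from one another. Of the 7 tested members in this class with Hsf1, 2 rose and 2 fell at 7 weeks and 1 fell at 3 weeks. Bag3, an Hsp70 partner known for sending damaged proteins to autophagy and an Hsf1 target, had levels of 5.62, 3.24 and 4.33 on the 7 week arrays, 1.29, 1.0 and 0.66 on the 3 week arrays and 1.62, 1.87 and 1.97 on the normal diet arrays. Every 7 week array was above all the others. Its difference was 2.57 ± 0.52 (adjusted p = 0.00903) at 7 weeks against normal diet, the largest rise among the members, and 3.42 ± 0.52 (adjusted p = 0.00163) against 3 weeks. At 3 weeks it was -0.84 ± 0.52 (adjusted p = 0.315) against normal diet. The rise at 7 weeks was 1.96 (adjusted p = 0.00636) without 7 week replicate 1, its highest array, and 1.77 (adjusted p = 0.0194) without scaling.

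Bag6, which guides proteins with a tail anchor and misfolded proteins from the ribosome, had levels of 4.58, 4.15 and 4.58 on the 7 week arrays, 3.34, 3.24 and 3.21 on the 3 week arrays and 3.08, 3.23 and 3.09 on the normal diet arrays. The 7 week arrays lay above all the others, with a difference of 1.3 ± 0.24 (adjusted p = 0.0067) against normal diet. Without scaling it was 0.49 (adjusted p = 0.177). Bag2, known as an inhibitor of the ubiquitin ligase that works with Hsp70, went the other way, with levels of 2.53, 2.19 and 2.35 on the 7 week arrays, 3.79, 4.06 and 3.88 on the 3 week arrays and 4.85, 4.34 and 4.16 on the normal diet arrays. Its 7 week arrays lay below all the others, and the difference was -2.09 ± 0.27 (adjusted p = 0.00237) against normal diet and -1.55 ± 0.27 (adjusted p = 0.00285) against 3 weeks. Bag4, a silencer of death receptor signalling, fell by 1.95 at 7 weeks (adjusted p = 0.00872), with levels of -1.8, -0.69 and -0.78 at 7 weeks and 1.22, 0.23 and 1.11 on normal diet.

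Bag1, an exchange factor that links Hsp70 to the proteasome, was called lower at 3 weeks. Its levels were 6.87, 6.87 and 7.11 on the 7 week arrays, 5.86, 5.83 and 5.87 on the 3 week arrays and 6.7, 6.74 and 6.89 on the normal diet arrays, and the 3 week arrays were below all the others. The difference at 3 weeks was -0.92 ± 0.23 (adjusted p = 0.0345) against normal diet, and at 7 weeks it was 0.17 ± 0.23 (adjusted p = 0.585). Its call at 3 weeks was lost without any 1 of the 3 week or normal diet arrays. Without scaling the differences were -0.76 (adjusted p = 0.131) at 3 weeks and -0.63 (adjusted p = 0.0921) at 7 weeks. Bag5, an exchange factor, had levels of 0.71 to 2.13 on the 7 week arrays, 2.41 to 3.01 on the 3 week arrays and 2.47 to 3.02 on the normal diet arrays, and differed by -1.06 ± 0.4 (adjusted p = 0.0766) at 7 weeks on its brightest probe. A second probe of Bag5 was called lower there, at -1.51 ± 0.47 (adjusted p = 0.0395). Hsf1 itself, the regulator, had levels of -1.11 to 0.26 on the 7 week arrays, -1.41 to -1.24 on the 3 week arrays and -0.61 to -0.17 on the normal diet arrays. Its differences were 0.05 ± 0.35 (adjusted p = 0.931) at 7 weeks and -0.89 ± 0.35 (adjusted p = 0.13) at 3 weeks, and neither passed.

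Of the 9 cytosolic Hsp70 proteins and exchange factors tested, 2 fell at 7 weeks and 0 rose, and 0 passed in either direction at 3 weeks, where 2 were lower at limma's unadjusted p under 0.05. Hspa8, the constitutive Hsp70 of the cytosol, passed in no comparison by its brightest probe, with levels of 5.8, 7.62 and 7.32 on the 7 week arrays, 6.4, 6.98 and 6.66 on the 3 week arrays and 7.08, 7.11 and 7.07 on the normal diet arrays. Of the 7 week arrays, replicates 2 and 3 lay above those of normal diet and replicate 1 below them. Hspa14, which works at the ribosome with Dnajc2, fell by 1.35 at 7 weeks (SE 0.27, adjusted p = 0.00882). Its levels were 4.67, 4.93 and 5.42 on the 7 week arrays, 5.44, 5.55 and 5.61 on the 3 week arrays and 6.53, 6.33 and 6.2 on the normal diet arrays, and all arrays on low iron diet were below those on normal diet. At 3 weeks its difference was -0.82 ± 0.27 (adjusted p = 0.0815).

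Among the Hsp110 exchange factors, Hspa4l fell at 7 weeks. Hspa4l had levels of 3.2, 1.62 and 2.79 on the 7 week arrays, 4.1, 3.86 and 3.93 on the 3 week arrays and 4.03, 3.81 and 4.19 on the normal diet arrays, with a difference of -1.47 ± 0.39 (adjusted p = 0.0235) at 7 weeks against normal diet and -1.43 ± 0.39 (adjusted p = 0.02) against 3 weeks. Its 7 week arrays were below all the others. Hspa4, its close relative, had levels of 4.68 to 5.38 on the 7 week arrays, 4.09 to 4.44 on the 3 week arrays and 4.15 to 4.61 on the normal diet arrays, and its difference at 7 weeks was 0.46 ± 0.29 (adjusted p = 0.256) on its brightest probe. Its 2 other probes had -1.93 ± 0.55 (adjusted p = 0.0284) and -1.68 ± 0.57 (adjusted p = 0.0527) at 7 weeks, so its probes differ in sign. Hsph1, the heat-inducible Hsp110, had levels of 2.22 to 3.06 on the 7 week arrays, 2.67 to 3.05 on the 3 week arrays and 2.5 to 3.12 on the normal diet arrays and differed by -0.12 ± 0.31 (adjusted p = 0.786) at 7 weeks and 0.02 ± 0.31 (adjusted p = 0.973) at 3 weeks. A second Hsph1 probe had -0.09 ± 0.4 (adjusted p = 0.881) at 7 weeks against normal diet and -1.29 ± 0.4 (adjusted p = 0.0301) against 3 weeks, past the threshold. Hspbp1, another exchange factor, had levels of 1.1 to 3.66 on the 7 week arrays, 3.08 to 3.63 on the 3 week arrays and 2.6 to 3.06 on the normal diet arrays, and Hspa2, a testis-enriched Hsp70, of -3.05 to -1.03 on the 7 week arrays, -1.87 to -1.66 on the 3 week arrays and -2.19 to -1.38 on the normal diet arrays. Neither passed, and for all 3 of Hsph1, Hspbp1 and Hspa2 the 7 week and normal diet arrays overlapped.

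Some stress-inducible members were hardly measurable here. Hspa1a, the inducible Hsp70, was well above background on 2 of 3 arrays at 7 weeks, 2 of 3 at 3 weeks and 1 of 3 on normal diet, and so was not tested. Its levels were -2.71, -5.78 and -0.28 on the 7 week arrays, -5.68, -2.06 and -4.6 on the 3 week arrays and -4.5, -5.46 and -5.38 on the normal diet arrays, and the groups overlapped. Its probe may also read the near-identical Hspa1b, which had no probe matched here. Hspb1, the small heat shock protein known in erythroid cells for its part in the turnover of Gata1, was well above background only on 7 week replicate 1, at -2.55. Hspb8, the partner of Bag3 in selective autophagy, and Hspa12a, Dnajb7 and Dnajc5g were well above background on 0 of the 9 arrays. Dnajb11, an Hsp40 of the endoplasmic reticulum, and Dnajc22 were so on 1 of 9, a 3 week array, and Dnajc6 on 2 of 9.

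The cytosolic Hsp90 pair, Hsp90aa1 (the inducible form) and Hsp90ab1 (the constitutive form), passed in 0 of the 3 comparisons; at limma's unadjusted p under 0.05, 1 was lower at 7 weeks. Hsp90aa1 had levels of 4.68, 6.44 and 6.74 on the 7 week arrays, 6.45, 6.33 and 6.46 on the 3 week arrays and 7.33, 7.08 and 7.05 on the normal diet arrays. All arrays on low iron diet lay below those on normal diet, and the differences were -1.2 ± 0.48 (adjusted p = 0.0885) at 7 weeks and -0.74 ± 0.48 (adjusted p = 0.339) at 3 weeks. The lowest level was that of 7 week replicate 1. Hsp90ab1 had levels of 5.81, 6.73 and 7.03 on the 7 week arrays, 5.81, 5.95 and 6.0 on the 3 week arrays and 6.04, 5.89 and 5.57 on the normal diet arrays, and differed by 0.69 ± 0.34 (adjusted p = 0.153) at 7 weeks, where 7 week replicate 1 overlapped the normal diet arrays and replicates 2 and 3 lay above them. Without that replicate its difference was 1.04 (adjusted p = 0.016), and that of Hsp90aa1 -0.56 (adjusted p = 0.0927).

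Of 6 small heat shock proteins tested, 2 fell and 1 rose at 7 weeks, and 2 fell at 3 weeks. Hspb6 (Hsp20), which shares the alpha-crystallin domain of the family, fell at both times. Its levels were 2.42, 1.35 and 1.85 on the 7 week arrays, 1.81, 2.15 and 2.55 on the 3 week arrays and 3.36, 3.52 and 4.0 on the normal diet arrays, with every array on low iron diet below those on normal diet. The differences were -1.75 ± 0.36 (adjusted p = 0.00902) at 7 weeks and -1.46 ± 0.36 (adjusted p = 0.0329) at 3 weeks. Hspb11, also called Ift25 and known from transport in cilia rather than from heat shock, had levels of 4.42, 3.38 and 3.96 on the 7 week arrays, 2.4, 2.26 and 2.75 on the 3 week arrays and 4.41, 4.87 and 4.29 on the normal diet arrays. The 3 week arrays were below all the others, and the difference of -2.05 ± 0.33 (adjusted p = 0.0119) was the lowest among the members at 3 weeks. Its difference at 7 weeks was -0.6 ± 0.33 (adjusted p = 0.194).

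Hspb9, a small heat shock protein otherwise known from testis, rose at 7 weeks, with levels of -0.53, -0.08 and -0.93 on the 7 week arrays, -1.43, -1.28 and -1.85 on the 3 week arrays and -2.04, -1.75 and -1.64 on the normal diet arrays. The 7 week arrays were above all the others and the difference was 1.3 ± 0.31 (adjusted p = 0.015). Without scaling it was 0.49 (adjusted p = 0.177). Hspb2 was called lower at 7 weeks, at -0.92 ± 0.26 (adjusted p = 0.0288), but its probe was not well above background on any 7 week array and no fold bound above 1 could be given. With normexp background correction the difference was 0.093, of the opposite sign, and the call was lost without 7 week replicate 2 or any 1 of the normal diet arrays. Hspb3 and Hspb7, both known from muscle, were likewise below background on all 7 week arrays, and passed in no comparison.

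Most of the Cct genes encode subunits of a single ring complex, and the class did not share 1 direction here. Of 9 tested, 1 fell at 7 weeks and 1 at 3 weeks. For 7 against 3 weeks, 3 were lower (Cct3, Cct4 and Cct6a) and 2 higher (Cct7 and Cct8l1). Cct8l1, which has no known place in the ring, was also the 1 that fell at 3 weeks. The median difference of the class was -0.52 at 7 weeks and 0.1 at 3 weeks against normal diet. Cct4 had levels of 1.93, 2.52 and 2.51 on the 7 week arrays, 4.49, 4.32 and 4.46 on the 3 week arrays and 4.84, 2.99 and 3.77 on the normal diet arrays, with the 7 week arrays below all the others. Its difference was -1.55 ± 0.44 (adjusted p = 0.0289) against normal diet, a call lost without 7 week replicate 1 or without normal diet replicate 1 or 3, and -2.1 ± 0.44 (adjusted p = 0.00613) against 3 weeks. Cct6a had levels of 0.45, 1.03 and 1.79 on the 7 week arrays, 3.4, 3.05 and 3.16 on the 3 week arrays and 2.75, 1.49 and 2.38 on the normal diet arrays, and was lower at 7 than at 3 weeks by 2.11 (adjusted p = 0.00531).

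Cct7 was higher at 7 than at 3 weeks. Its levels were 6.88, 7.47 and 7.59 on the 7 week arrays, 6.14, 6.14 and 6.17 on the 3 week arrays and 6.71, 6.56 and 6.69 on the normal diet arrays, and the difference was 1.16 ± 0.26 (adjusted p = 0.00898) against 3 weeks and 0.66 ± 0.26 (adjusted p = 0.0882) against normal diet. Without scaling, the first was 0.2 (adjusted p = 0.631). Cct3 was lower at 7 than at 3 weeks, at -0.87 ± 0.3 (adjusted p = 0.0477), a call lost without any array but 7 week replicate 3. Cct2, Cct5 and Cct8 passed in no comparison, with differences at 7 weeks against normal diet of -0.67, -0.52 and -0.1. Each had its lowest level on 7 week replicate 1.

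Cct8l1, a Cct8-like gene with no known place in the ring, had levels of -2.21, -1.21 and -1.59 on the 7 week arrays, -3.57, -3.15 and -4.33 on the 3 week arrays and -2.77, -1.48 and -1.66 on the normal diet arrays. It fell at 3 weeks by 1.71 (SE 0.46, adjusted p = 0.0438) and was higher at 7 than at 3 weeks by 2.01 ± 0.46 (adjusted p = 0.00901). The 3 week arrays were below all the others. Tcp1, the remaining subunit of the ring, which is outside the name rule, had differences of -0.51 ± 0.47 (adjusted p = 0.433) at 7 weeks and 0.17 ± 0.47 (adjusted p = 0.837) at 3 weeks.

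In the endoplasmic reticulum, the unfolded protein response raises the Hsp70 protein Hspa5 (BiP), the Hsp90 protein Hsp90b1 and several J-domain partners. Of 12 members of this class tested, 3 fell and 1 rose at 7 weeks, and 3 fell at 3 weeks. Hspa5, with the stress element in its promoter, had levels of 8.37, 7.04 and 7.28 on the 7 week arrays, 6.74, 6.46 and 6.49 on the 3 week arrays and 7.48, 7.58 and 7.55 on the normal diet arrays. The 3 week arrays lay below all the others, with a difference of -0.97 ± 0.35 (adjusted p = 0.107) against normal diet. At 7 weeks the difference was 0.03 ± 0.35 (adjusted p = 0.958), with replicate 1 above and replicates 2 and 3 below the normal diet arrays. Hspa5 was also the brightest member, at 25.7% of the saturation value. Among the 291 genes at 20 to 40% of that value, which include Hspa5, Hspa8, Dnajb1, Dnajc5 and Dnajc9, the median difference was 0.29 at 7 weeks and -0.65 at 3 weeks against normal diet, and 0.95 for 7 against 3 weeks. Hsp90b1 had levels of 5.26, 4.53 and 5.03 on the 7 week arrays, 4.99, 4.81 and 4.91 on the 3 week arrays and 4.88, 4.63 and 5.04 on the normal diet arrays, and differed by 0.09 ± 0.27 (adjusted p = 0.824) at 7 weeks and 0.05 ± 0.27 (adjusted p = 0.925) at 3 weeks.

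Dnajc3 (P58IPK), whose promoter holds the stress element too and which inhibits kinases of eIF2 alpha, fell at 7 weeks. Its levels were 0.27, 0.73 and 0.91 on the 7 week arrays, 2.46, 1.76 and 2.09 on the 3 week arrays and 2.7, 1.83 and 2.65 on the normal diet arrays, the 7 week arrays being below all the others. The difference was -1.76 ± 0.34 (adjusted p = 0.00767) against normal diet and -1.47 ± 0.34 (adjusted p = 0.01) against 3 weeks. Dnajc10 (ERdj5), which reduces wrong disulfide bonds, fell at both times and had levels of 2.96, 3.27 and 3.71 on the 7 week arrays, 3.08, 2.59 and 3.54 on the 3 week arrays and 4.54, 4.39 and 4.37 on the normal diet arrays. Its differences were -1.12 ± 0.32 (adjusted p = 0.0301) at 7 weeks and -1.36 ± 0.32 (adjusted p = 0.0301) at 3 weeks. All its arrays on low iron diet were below those on normal diet, but a second, dimmer Dnajc10 probe had 0.37 ± 0.45 (adjusted p = 0.555) at 7 weeks and -0.67 ± 0.45 (adjusted p = 0.36) at 3 weeks. Dnajb9 (ERdj4), a partner of Hspa5 that the unfolded protein response is known to raise, had 2.89, -0.54 and -0.95 at 7 weeks, 1.05, 0.75 and 0.47 at 3 weeks and -0.13, -0.37 and -0.32 on normal diet, and its difference at 7 weeks was 0.74 ± 0.84 (adjusted p = 0.526).

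Dnajc14 and Dnajc18, J-domain proteins of the reticulum's membrane, fell at 3 weeks. Dnajc14 had levels of 1.27, 1.95 and 1.16 on the 7 week arrays, -0.21, 0.02 and -0.57 on the 3 week arrays and 0.53, 1.27 and 1.11 on the normal diet arrays, with the 3 week arrays below all the others. Its difference was -1.22 ± 0.33 (adjusted p = 0.0456) against normal diet, and it was higher at 7 than at 3 weeks by 1.71 ± 0.33 (adjusted p = 0.0045). That value was 0.75 (adjusted p = 0.0736) without scaling, and a second Dnajc14 probe had -0.26 ± 0.6 (adjusted p = 0.757). Dnajc18 had levels of 1.71, -0.35 and 0.62 on the 7 week arrays, -0.92, -1.05 and -0.29 on the 3 week arrays and 1.47, 1.36 and 0.74 on the normal diet arrays and a difference of -1.94 ± 0.5 (adjusted p = 0.0383) at 3 weeks. Dnajc1 (ERdj1), which binds ribosomes, rose at 7 weeks by 0.8 ± 0.26 (adjusted p = 0.0454), a call lost whichever array was left out, and stood at -0.0057 without scaling. Dnajb14 was higher at 7 than at 3 weeks, by 0.8 ± 0.27 (adjusted p = 0.0414), but at -0.16 (adjusted p = 0.675) without scaling. Dnajc16 fell at 7 weeks by 1.39 (adjusted p = 0.0275), a call lost without 7 week replicate 3 or without normal diet replicate 1 or 3. Hspa13, a microsomal Hsp70, had levels of -0.02 to 2.63 on the 7 week arrays, 0.7 to 1.23 on the 3 week arrays and 1.06 to 1.45 on the normal diet arrays, and its highest level was that of 7 week replicate 1.

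Mitochondria import most of their proteins unfolded, through a motor of Hspa9 (mortalin) and J-domain partners, and fold them in the chaperonin of Hspd1 (Hsp60) and Hspe1 (Hsp10). Of 8 members tested, 1 fell at 7 weeks and 2 fell at 3 weeks, and 2 were higher at 7 than at 3 weeks. Dnajc19 (Tim14), the J-domain protein of the import motor, had levels of 4.99, 6.34 and 6.48 on the 7 week arrays, 3.98, 3.74 and 4.52 on the 3 week arrays and 5.97, 5.94 and 5.64 on the normal diet arrays. The 3 week arrays were below all the others, and the differences were -1.77 ± 0.42 (adjusted p = 0.0298) at 3 weeks and 0.09 ± 0.42 (adjusted p = 0.891) at 7 weeks against normal diet. Against 3 weeks, the 7 week level was higher by 1.86 ± 0.42 (adjusted p = 0.00857), and by 0.89 (adjusted p = 0.146) without scaling. A second probe, of another RefSeq transcript of this gene, also fell at 3 weeks, by 1.58 (adjusted p = 0.0442 over all probes), but was 0.58 ± 0.42 (adjusted p = 0.299) for 7 against 3 weeks.

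Dnajc30, a J-domain protein of the inner membrane, had levels of 2.16, 2.43 and 2.95 on the 7 week arrays, 1.11, 1.36 and 1.64 on the 3 week arrays and 3.19, 2.84 and 2.81 on the normal diet arrays. Its differences were -1.58 ± 0.3 (adjusted p = 0.0162) at 3 weeks, with the 3 week arrays below all the others, and 1.14 ± 0.3 (adjusted p = 0.0158) for 7 against 3 weeks. Dnajc15, the paralog of Dnajc19, had 0.82, 2.91 and 3.12 at 7 weeks, 0.86, 0.94 and 1.11 at 3 weeks and 1.47, 1.58 and 1.0 on normal diet. Its difference at 7 weeks was 0.93 ± 0.55 (adjusted p = 0.219), and 1.66 (adjusted p = 0.00406) without replicate 1, the low one. Hspa9, which also serves iron-sulfur cluster assembly and is known from its loss in human myelodysplastic syndrome, had levels of 5.34, 3.73 and 3.75 on the 7 week arrays, 4.56, 4.34 and 4.27 on the 3 week arrays and 3.92, 4.01 and 3.54 on the normal diet arrays. It passed in no comparison, with 0.45 ± 0.43 (adjusted p = 0.448) at 7 weeks and 0.56 ± 0.43 (adjusted p = 0.413) at 3 weeks.

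The chaperonin pair shared the array that stood apart. Hspd1 had levels of 3.15, 5.02 and 4.97 on the 7 week arrays, 4.54, 4.69 and 5.01 on the 3 week arrays and 5.16, 5.55 and 4.82 on the normal diet arrays, and Hspe1 of 3.86, 6.69 and 6.09 on the 7 week arrays, 4.33, 4.62 and 5.06 on the 3 week arrays and 5.96, 6.29 and 5.15 on the normal diet arrays. Both were lowest on 7 week replicate 1, while replicates 2 and 3 lay within the normal diet range for Hspd1, and for Hspe1 replicate 2 lay above it and replicate 3 within it. Their differences at 7 weeks were -0.8 ± 0.49 (adjusted p = 0.241) and -0.25 ± 0.66 (adjusted p = 0.792), and at 3 weeks -0.43 ± 0.49 (adjusted p = 0.597) and -1.13 ± 0.66 (adjusted p = 0.288). Dnaja3 (Tid1), a partner of Hspa9, had levels of 2.27 to 4.19 on the 7 week arrays, 3.11 to 3.22 on the 3 week arrays and 2.24 to 3.76 on the normal diet arrays and passed in no comparison. Dnajc11, of the complex that shapes cristae, fell at 7 weeks by 0.9 (adjusted p = 0.0373).

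The remaining J-domain proteins held the largest falls at 7 weeks. Of 25 tested, 8 fell at 7 weeks (32%, against 18.7% of all genes tested) and 0 rose (against 10.7%). At 3 weeks 1 fell (4%, against 7.88% of all genes). At limma's unadjusted p under 0.05, 13 were lower and 0 higher at 7 weeks. The share of all genes at that p is not given here. The median difference was -0.73 at 7 weeks and -0.45 at 3 weeks. Dnajb1 (Hsp40), the classical heat-inducible partner of Hsp70, had levels of 5.92, 6.66 and 6.93 on the 7 week arrays, 6.74, 6.58 and 7.01 on the 3 week arrays and 7.98, 7.87 and 7.77 on the normal diet arrays. All arrays on low iron diet lay below those on normal diet, and the difference was -1.36 ± 0.31 (adjusted p = 0.0131) at 7 weeks, a call lost without normal diet replicate 1, and -1.09 ± 0.31 (adjusted p = 0.0521) at 3 weeks. Dnaja1 and Dnaja2, the main partners of Hspa8 in the cytosol, both fell at 7 weeks by their brightest probes. A second probe passed for neither, at -1.55 ± 0.69 (adjusted p = 0.116) for Dnaja1 and -0.74 ± 0.27 (adjusted p = 0.0677) for Dnaja2. Dnaja2 had levels of 3.06, 3.74 and 3.65 on the 7 week arrays, 4.75, 4.83 and 4.88 on the 3 week arrays and 5.83, 4.9 and 5.51 on the normal diet arrays and a difference of -1.93 ± 0.32 (adjusted p = 0.00458), while Dnaja1 differed by -0.75 ± 0.24 (adjusted p = 0.0447), a call lost whichever array was left out.

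Dnajb3, first described in mouse spermatids, had levels of 2.97, 1.83 and 2.24 on the 7 week arrays, 4.34, 4.56 and 4.68 on the 3 week arrays and 5.37, 5.25 and 5.32 on the normal diet arrays. The 7 week arrays were below all the others, with a difference of -2.97 ± 0.32 (adjusted p = 0.00153) against normal diet and -2.18 ± 0.32 (adjusted p = 0.00132) against 3 weeks. Dnajc21, whose yeast relative Jjj1 helps to mature the large ribosomal subunit, had levels of -3.04, -0.66 and -0.3 on the 7 week arrays, 1.79, 1.74 and 1.47 on the 3 week arrays and 0.96, 0.6 and 1.11 on the normal diet arrays. On this brightest probe it fell at 7 weeks, with a difference of -2.22 ± 0.62 (adjusted p = 0.0278) against normal diet and -3.0 ± 0.62 (adjusted p = 0.006) against 3 weeks. A second Dnajc21 probe passed in neither, at -0.75 ± 0.49 (adjusted p = 0.263) and -0.34 ± 0.49 (adjusted p = 0.611). On the brightest probe the 3 week arrays lay above those on normal diet, at 0.77 ± 0.62 (adjusted p = 0.439). Without 7 week replicate 1, its lowest array, the difference from normal diet was -1.37 (adjusted p = 0.00772), and the call was lost without any 1 of the normal diet arrays.

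Dnajc24 (Dph4), needed to make diphthamide on elongation factor eEF2, fell at both times. Its levels were 2.15, 2.93 and 2.83 on the 7 week arrays, 1.88, 2.32 and 2.72 on the 3 week arrays and 4.28, 3.96 and 3.73 on the normal diet arrays, with all arrays on low iron diet below those on normal diet, and the differences were -1.35 ± 0.33 (adjusted p = 0.0174) at 7 weeks and -1.68 ± 0.33 (adjusted p = 0.0186) at 3 weeks. Dnajc25 had levels of -2.79, -1.28 and -2.6 on the 7 week arrays, -0.18, -0.18 and 0.66 on the 3 week arrays and 0.48, 0.24 and 0.29 on the normal diet arrays and a difference of -2.56 ± 0.43 (adjusted p = 0.00477) at 7 weeks. The 7 week arrays of this gene were below all the others. Dnajc28 was not well above background on any 7 week array, where it was at least 2.71-fold lower than on normal diet (adjusted p = 0.00916) and at least 1.57-fold lower than at 3 weeks. This bound sets the normal diet mean against the lowest signal still well above background on each dim array.

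Members of this class called only between the diet times were, besides Dnajb6, Dnajc5 and Dnajc17, higher at 7 than at 3 weeks, and Dnajc12, Dnajc13 and Dnajb8, lower. Dnajc17 was higher by 0.89 ± 0.27 (adjusted p = 0.0321), but at -0.077 without scaling. Dnajc12 was lower, at -1.65 ± 0.5 (adjusted p = 0.03). Dnajc5 (CSP alpha), known from secretory vesicles, had levels of 8.34, 7.25 and 7.29 on the 7 week arrays, 6.76, 6.28 and 6.19 on the 3 week arrays and 7.27, 7.53 and 7.37 on the normal diet arrays and was higher at 7 weeks by 1.21 ± 0.34 (adjusted p = 0.0228). Without scaling, that value was 0.25 (adjusted p = 0.53). Dnajc13, an endosomal J-domain protein, had levels of 0.24, -0.52 and -0.21 on the 7 week arrays, 1.28, 1.14 and 1.9 on the 3 week arrays and 0.92, 0.45 and 1.02 on the normal diet arrays and was lower at 7 than at 3 weeks, at -1.6 ± 0.33 (adjusted p = 0.00555). Dnajb8 was below background on all 7 week arrays, so its difference of -0.84 ± 0.27 (adjusted p = 0.0357) has no bound above 1.

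Several other cytosolic J-domain proteins passed in no comparison by their brightest probe. Dnaja4, a heat-inducible form, had levels of 4.79 to 6.0 on the 7 week arrays, 5.83 to 6.05 on the 3 week arrays and 5.96 to 6.3 on the normal diet arrays. A second Dnaja4 probe was called lower at 7 weeks, at -2.88 ± 0.66 (adjusted p = 0.0133) against normal diet and -3.18 ± 0.66 (adjusted p = 0.00569) against 3 weeks. Dnajb4 had levels of 2.28 to 4.85 on the 7 week arrays, 3.71 to 4.59 on the 3 week arrays and 2.76 to 3.96 on the normal diet arrays, and its 7 week arrays spanned those of both other groups. Dnajc2 (Zrf1), the ribosome partner of Hspa14, was lowest on 7 week replicate 1, at -2.75, and had -0.64 to -0.15 at 3 weeks and -0.95 to -0.7 on normal diet. Dnajc7 (Tpr2), which moves clients between Hsp70 and Hsp90, had levels of 2.84 to 3.68 on the 7 week arrays, 3.18 to 3.89 on the 3 week arrays and 3.8 to 4.3 on the normal diet arrays and a difference of -0.71 ± 0.32 (adjusted p = 0.122) at 7 weeks.

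**Figure D2:**
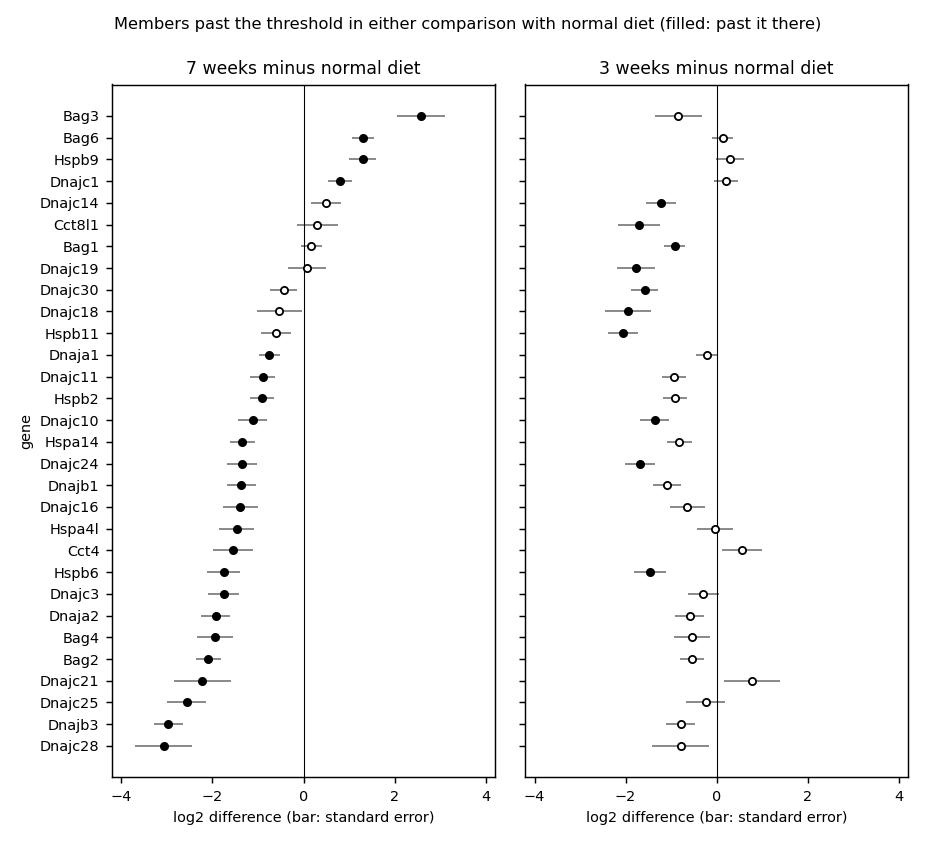
Each row is a member past the threshold in either comparison with normal diet; the left panel gives the log2 difference at 7 weeks and the right panel that at 3 weeks, with bars for the standard error of limma and filled points where the adjusted p was under 0.05. Bag3 lies farthest to the right at 7 weeks, and the 10 filled points at 3 weeks are all to the left of 0.

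**Figure D3:**
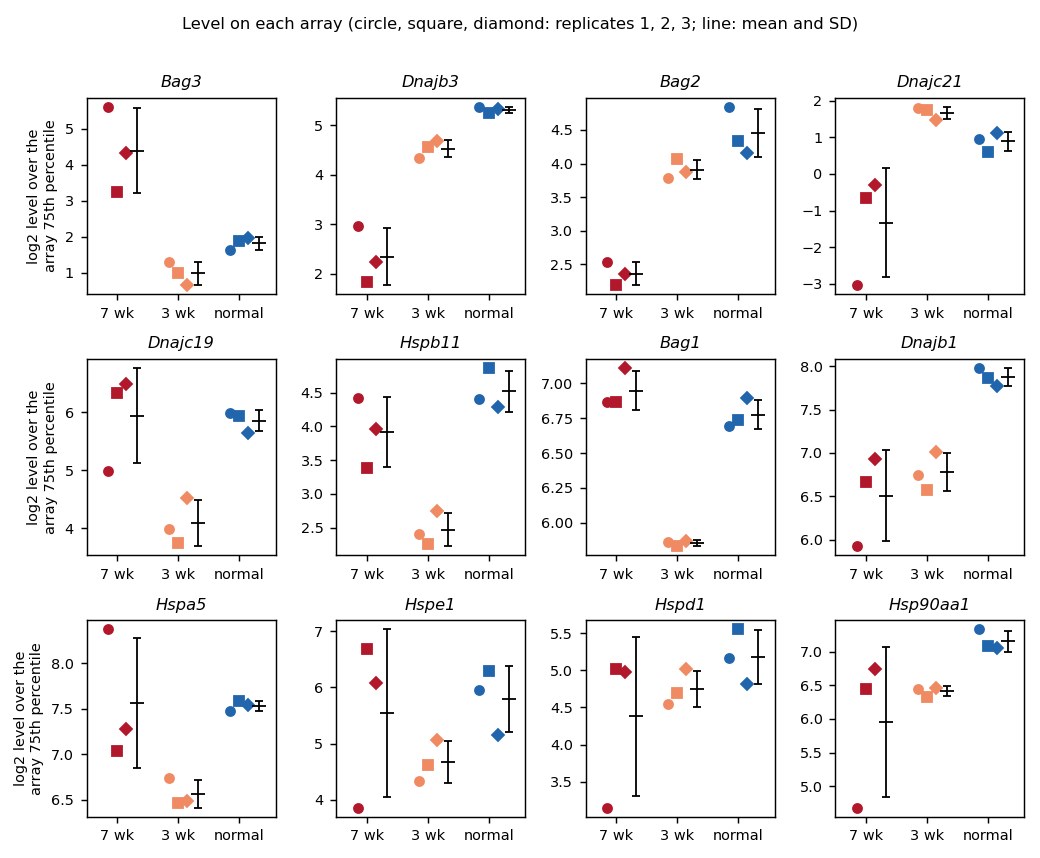
Each panel gives the log2 level of 1 gene over the array's 75th percentile on the 3 arrays of each group (7 weeks, 3 weeks and normal diet from left to right), with the mean and SD in black. Bag1, Dnajc19, Hspb11 and Hspa5 are lowest at 3 weeks, Dnajb3 and Bag2 are lowest at 7 weeks, and the circle of 7 week replicate 1 lies apart for Hspd1, Hspe1, Hspa5 and Hsp90aa1.

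Much of the spread among these genes came from 7 week replicate 1. It lay over 1 log2 unit above both other 7 week arrays for 13 members and over 1 below both for 14, together 34.6% of members, against 26.5% of all genes tested. For 7 week replicate 2 that share was 7.69% of members and 10.7% of all genes, and for each of the other arrays it was at most 3.85% of members. The median SD of the members was 0.59 at 7 weeks, 0.21 at 3 weeks and 0.23 on normal diet. Over all genes tested it was 0.58, 0.32 and 0.29, so the wider spread at 7 weeks was not particular to the members. Of the 12 members of the endoplasmic reticulum class, 4 lay over 1 above both others on this array. Dnajb9 was at 2.89, against -0.54 and -0.95 on the other 7 week arrays, and Hspa13, Hspa5 and Dnajc18 were the others, while Dnajc3, Dnajc10 and Dnajb14 had their lowest 7 week level on it. Of the 8 mitochondrial members, Hspa9 and Dnaja3 lay over 1 above and Hspd1, Hspe1, Dnajc15 and Dnajc19 over 1 below. Among cytosolic members, Bag3, Dnajb4 and Hspa2 lay above, and Hsp90aa1, Hspa8 and Cct2 below.

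Leaving that array out left 23 of the 23 differences called at 7 weeks with their sign and 20 with their call. In that fit 23.2% of all genes were lower and 12.7% higher. Members newly called were 3 higher ones, Cct7, Dnajc15 and Hsp90ab1, and 8 lower ones, Cct6b, Dnaja4, Dnajb12, Dnajc13, Dnajc5b, Dnajc8, Hspa13 and Hspa2. Hspa13, for instance, then differed by -1.04 (adjusted p = 0.0253). At 3 weeks, where the array serves only to set the spread, leaving it out added 12 lower members, among them Hspa5 at -0.97 (adjusted p = 0.0143), Dnajb1 at -1.09 (adjusted p = 0.012), Hsp90aa1 at -0.74 (adjusted p = 0.037) and Hsf1 at -0.89 (adjusted p = 0.0304). It also added 4 higher ones, Cct3, Dnajb9, Dnajb13 and Dnajc21. In that fit 15.9% of all genes were lower and 8.26% higher at 3 weeks. A fit of the 3 week and normal diet arrays alone gave 25 lower and 4 higher members, where 19.2% of all genes were lower and 11.2% higher.

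**Figure D4:**
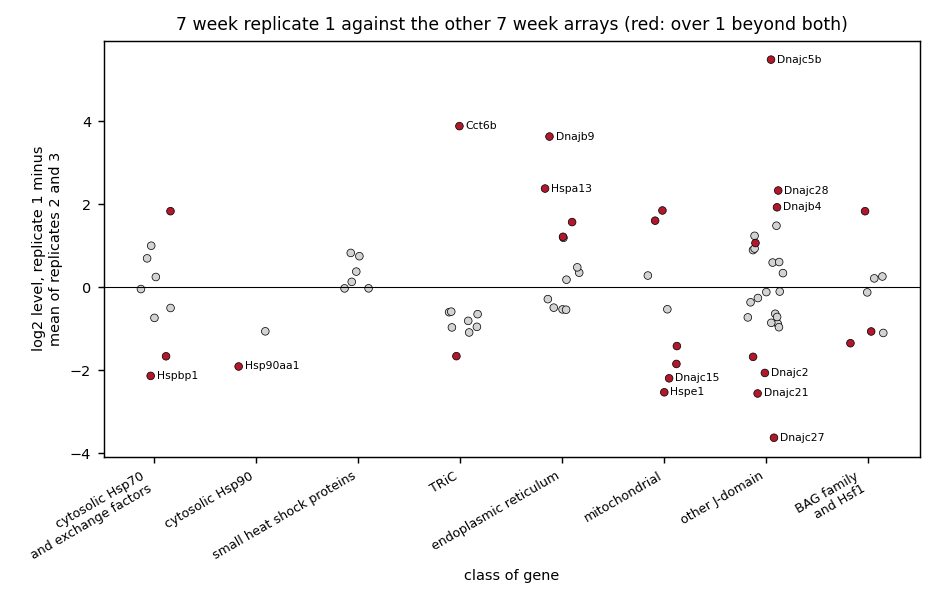
Each point is a member tested, placed by class; the vertical axis is its log2 level on 7 week replicate 1 minus the mean of 7 week replicates 2 and 3, and red points lie over 1 beyond both. Dnajc5b, Cct6b and Dnajb9 are the highest, and Dnajc27, Dnajc21 and Hspe1 the lowest.

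Genes read by more than 1 probe did not always give 1 answer. Dnajb6, a J-domain protein that keeps polyglutamine chains from aggregating, had 4 probes, 2 for each of 2 RefSeq transcripts. Its brightest probe was higher at 7 than at 3 weeks by 1.2 ± 0.39 (adjusted p = 0.0391), and the other probe of the same transcript had 1.05 ± 0.44 (adjusted p = 0.0887), the p-values of further probes being adjusted over all probes. The 2 probes of the other transcript had -2.24 ± 0.55 (adjusted p = 0.0116) and -1.58 ± 0.57 (adjusted p = 0.0548). On the brighter of these the levels were 3.73, 1.63 and 3.45 on the 7 week arrays, 5.25, 5.43 and 4.86 on the 3 week arrays and 4.33, 3.68 and 4.81 on the normal diet arrays, and on the brightest probe of the gene 7.07, 5.46 and 6.21 on the 7 week arrays, 5.28, 4.97 and 4.9 on the 3 week arrays and 5.79, 6.07 and 6.13 on the normal diet arrays. So probes of the 2 transcripts were called in opposite directions, and without 7 week replicate 1 the brightest probe's difference was 0.78 (adjusted p = 0.0596).

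For other members, probes differed in size or sign without opposite calls. Dnajb2, known as a neuronal J-domain protein, differed by -0.53 ± 0.49 (adjusted p = 0.423) for 7 against 3 weeks on its brightest probe, while a probe of its other transcript had -3.66 ± 0.52 (adjusted p = 0.00109). The levels of that probe were 1.68, -0.34 and 1.5 on the 7 week arrays, 4.61, 4.81 and 4.41 on the 3 week arrays and 3.1, 2.85 and 3.74 on the normal diet arrays. Hspa8 had 3 probes of 1 transcript: the brightest differed by -0.17 ± 0.44 (adjusted p = 0.791) at 7 weeks against normal diet, the next by -0.69 ± 0.49 (adjusted p = 0.308), and the dimmest by -2.72 ± 0.65 (adjusted p = 0.0158). Dnajc11 had -0.9 ± 0.27 (adjusted p = 0.0373) on its brightest probe and -2.98 ± 0.41 (adjusted p = 0.00239) on the other. When all probes of a gene were averaged, 18 members fell and 4 rose at 7 weeks, beside 19.7% and 9.67% of all genes.

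**Figure D5:**
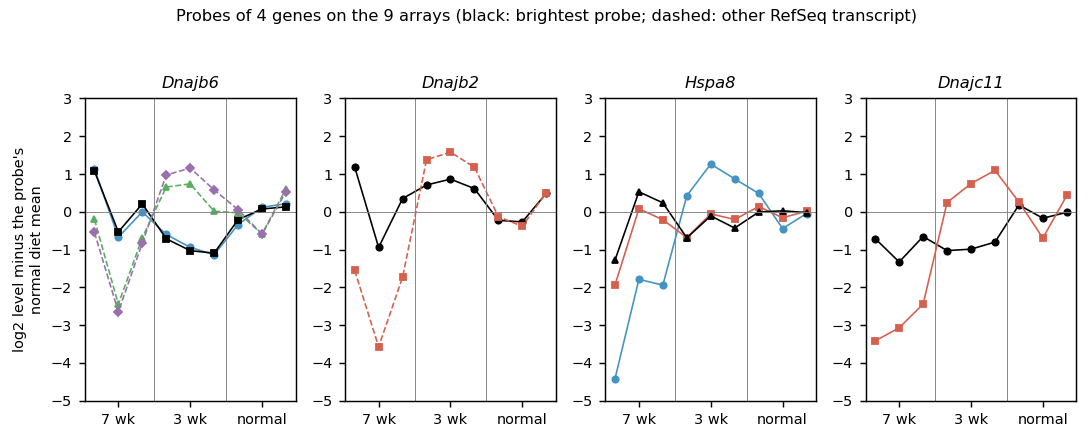
Each line is a probe of Dnajb6, Dnajb2, Hspa8 or Dnajc11 across the 9 arrays (3 at 7 weeks, 3 at 3 weeks and 3 on normal diet from left to right), as log2 level minus that probe's mean on normal diet; black marks the brightest probe and dashes the probes of another RefSeq transcript. Within Dnajb6 the solid and dashed lines cross between 7 and 3 weeks, and for Dnajb2, Hspa8 and Dnajc11 a dimmer probe lies far below the brightest at 7 weeks.

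Members that share a motif did not share a pattern of calls. Of the 4 with a heat shock element, only Dnajb6 was called by its brightest probe, for 7 against 3 weeks, and with opposite directions between its transcripts. Their differences at 7 weeks against normal diet were -0.8 for Hspd1, -0.25 for Hspe1, -0.12 for Hsph1 and 0.25 for Dnajb6. Of the 3 with an endoplasmic reticulum stress element, Dnajc3 fell at 7 weeks (-1.76), while Hspa5 (0.03) and Hsp90b1 (0.09) did not pass. A match is only a run of letters, and a window without one says nothing about binding of the factor.

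Genes of the wider chaperone network that the name rule leaves out were read from a list of 53, of which 51 were tested. At 7 weeks 5 rose and 6 fell against normal diet, beside 10.7% and 18.7% of all genes tested. At 3 weeks 0 passed limma's threshold, beside 3.52% of all genes higher and 7.88% lower. There 13 of the list had an unadjusted p under 0.05, a share not given here for all genes. Between 7 and 3 weeks 8 were higher and 7 lower, beside 17.6% and 19.6% of all genes. The median difference was -0.11 at 7 weeks and -0.29 at 3 weeks. Cryab, the alpha B-crystallin of the small heat shock family, had levels of 4.83, 5.24 and 3.87 on the 7 week arrays, 1.55, 1.94 and 0.82 on the 3 week arrays and 2.48, 3.38 and 2.62 on the normal diet arrays. It rose by 1.82 ± 0.45 (adjusted p = 0.0175) at 7 weeks. Ern1 (Ire1), the sensor of unfolded protein in the reticulum, rose by 2.51 ± 0.6 (adjusted p = 0.016), and the prefoldin subunits Pfdn4 and Pfdn5, which hand actin and tubulin to TRiC, by 1.34 and 1.14. Another prefoldin subunit, Vbp1, fell, at -1.89 ± 0.38 (adjusted p = 0.00903).

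Of the mitochondrial chaperone network, Grpel2, an exchange factor for Hspa9, fell at 7 weeks, at -1.8 ± 0.4 (adjusted p = 0.012), and its relative Grpel1 had 0.1 ± 0.28 (adjusted p = 0.804) at 7 weeks and -0.99 ± 0.28 (adjusted p = 0.05) at 3 weeks. Trap1, the mitochondrial Hsp90, was lower at 7 than at 3 weeks, at -2.91 ± 0.77 (adjusted p = 0.0169). Tomm70a, the import receptor that takes clients from Hsp90 and Hsp70, fell at 7 weeks, at -1.54 ± 0.33 (adjusted p = 0.0107). Hscb, the J-domain protein of iron-sulfur cluster assembly, had 0.43 ± 0.41 (adjusted p = 0.445) at 7 weeks and -0.14 ± 0.41 (adjusted p = 0.851) at 3 weeks. The Hsp90 partners Stip1 and Ahsa1 had -0.0037 and 0.26 at 7 weeks, Hyou1, an Hsp110 protein of the reticulum, had -0.11, and the heme-regulated kinase Eif2ak1 -0.05. Stip1, Ahsa1, Hyou1, Eif2ak1, Hscb, Grpel1 and Trap1 did not pass against normal diet.

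Markers of other cells moved beside these results, and their part was not tested. At 3 weeks, where the 10 members fell, 2 of 10 neutrophil markers and 2 of 7 B lineage markers rose along with the 4 monocyte and macrophage markers. At 7 weeks, the mast cell, basophil and eosinophil markers Mcpt8, Epx and Cpa3 were not well above background on any array, and the summed level of that list was -0.95 to -0.60 at 7 weeks, -0.82 to 4.61 at 3 weeks and 3.73 to 4.57 on normal diet. Among the erythroblast markers 3 of 10 rose and 1 fell at 7 weeks. Their summed level was 11.36 to 11.98 at 7 weeks, 10.78 to 10.86 at 3 weeks and 10.98 to 11.06 on normal diet.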

How the data were processed

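Expression was measured in 9 samples of sorted mouse erythroblasts. The deposited files hold spot intensity from Agilent Feature Extraction 10.7.3.1. Per the file headers, background was subtracted and a spatial trend removed on each array, with no scaling across arrays. A series table deposited by the authors gives log2 values which, set against the scanner values, were centred per probe at its median (r of 0.997 to 0.999 per array; column medians 0, except -0.019 for 7 week replicate 2); its scaling between arrays is not given in the sources used here.

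Control and outlier spots were left out; no spot was saturated. The log2 of the processed signal over the 75th percentile of its array was averaged per probe. Probes were named by RefSeq accession through a GRCm38.p6 gene table (26413 probes, 20018 symbols). A probe was tested when flagged well above background in every replicate of 1 group or more, and the brightest stood for its gene. One model over all 9 arrays (limma 3.58.1, R 4.3.3, lmFit and eBayes) gave 3 comparisons, two-sided, Benjamini-Hochberg adjusted over 14506 genes, threshold 0.05. The number of arrays limits the precision.

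Members, lists and tests were chosen with earlier results of these data known. Members given with full values were the 8 largest per direction and comparison among those called, a fixed core list, members called while below background in a whole group, and members with probes called in opposite directions; Dnajb2, Hspa8 and Dnajc11 probes and the sequences shown were chosen after values were seen. Replicate numbers did not pair the samples: deviations from group means of same-numbered arrays correlated at -0.172 to 0.286. Alternatives were scaling, background correction, filter, probe choice, series table, replicate block, samples in the fit and each array left out.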

Additional observations from a re-analysis of the deposited data

Results flagged for a closer look

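In 7 members the effects at the diet times had opposite signs against normal diet on the brightest probe. They also differed from each other in limma's direct comparison of 7 with 3 weeks. Bag3 was higher at 7 than at 3 weeks by 3.42 (adjusted p = 0.00163), being 2.57 at 7 weeks and -0.84 at 3 weeks against normal diet. Cct8l1 was higher by 2.01 (adjusted p = 0.00901), Dnajc19 by 1.86 (adjusted p = 0.00857), Dnajc14 by 1.71 (adjusted p = 0.0045) and Bag1 by 1.09 (adjusted p = 0.00617). Dnajc21 was lower at 7 than at 3 weeks, at -3.0 (adjusted p = 0.006), and so was Cct4, at -2.1 (adjusted p = 0.00613). In each of the 7 members, all 3 arrays of 1 diet time lay on 1 side of all 3 of the other. The members were picked by that same comparison, so this separation is no further support. In it 37.2% of all genes were called, and the share of all genes that also had opposite signs is not given here. For Bag1, Cct8l1, Dnajc14 and Dnajc19 the 3 week side passed the threshold against normal diet, and for Bag3, Cct4 and Dnajc21 the 7 week side. The other side passed in none of the 7, at 0.17, 0.3, 0.49, 0.09, -0.84, 0.55 and 0.77 in that order. Second probes of Dnajc14 (-1.23 and -0.97 at 7 and 3 weeks), Dnajc19 (-1.0 and -1.58) and Dnajc21 (-0.75 and -0.41) had the same sign at both times. That of Bag1 had 0.03 and -0.77. With slide, age and diet time not separable, a part of the slide or of age in these differences was not tested. Without scaling, Bag1, Cct8l1, Dnajc14 and Dnajc19 were lower than normal diet at both times and lost the call between the times: their differences for 7 against 3 weeks were then 0.13 (adjusted p = 0.718), 1.05 (adjusted p = 0.0817), 0.75 (adjusted p = 0.0736) and 0.89 (adjusted p = 0.146). Bag3, Cct4 and Dnajc21 kept opposite signs and the call, at 2.45 (adjusted p = 0.00409), -3.06 (adjusted p = 0.00119) and -3.96 (adjusted p = 0.00173).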

How the results depend on the processing

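Counts are of members higher and lower, set against 4 and 19 at 7 weeks against normal diet, 0 and 10 at 3 weeks against normal diet, and 14 and 15 for 7 against 3 weeks. At 3 weeks against normal diet, quantile normalization gave 2 and 7 (4.24% and 5.57% of all genes) and no scaling 1 and 1 (3.39% and 3.27%). Normexp on the median signal gave 1 and 12 (5.13% and 8.69%). It was chosen after seeing the data, because the planned normexp on the mean signal could not be run on these files. For the same comparison, no filter on dim probes gave 0 and 6 (2.26% and 4.17%), and the 2 groups alone 4 and 25 (11.2% and 19.2%). At 7 weeks against normal diet, no scaling gave 1 and 37 (3.13% and 45.8% of all genes). For 7 against 3 weeks, no scaling gave 1 and 39 (5.69% and 46.9% of all genes) and quantile normalization 12 and 25 (15.6% and 22.1%). The 2 groups alone gave 9 and 11 there (13.2% and 14.3%). Against normal diet replicate 3 alone, 0 and 0 passed limma's threshold at both times (16 members at 7 weeks and 8 at 3 weeks had an unadjusted p under 0.05). Leaving out 1 array at a time gave 2 to 6 higher and 9 to 25 lower at 7 weeks, 0 to 4 and 0 to 22 at 3 weeks, and 9 to 19 and 9 to 16 for 7 against 3 weeks. The share of all genes lower at 3 weeks moved too in these fits, from 0.8% to 15.9%, and that at 7 weeks from 8.02% to 23.2%. In the other alternatives for these counts the number stayed within 1.5 times of the one reported.

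With the replicate number as a block the counts were 4 and 19 (10.2% and 17.8% of all genes), 0 and 8 (3.27% and 6.39%), and 14 and 14 (16.9% and 19.3%). The numbers share no known pairing.

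Over single members, 2407 of 2838 values under an alternative stayed on the same side of the threshold, and 264 lost and 155 gained the call. Another 12 turned sign and were called in the reported fit or in the alternative. Turns of sign without a call in either fit are not among these 12. Hspa8, for instance, went from 0.24 to -0.73 for 7 against 3 weeks without scaling. Without scaling, the difference for 7 against 3 weeks became -0.16 for Dnajb14, -0.92 for Dnajc11, -0.077 for Dnajc17, -0.92 for Hsp90b1 and -0.96 for Hspb2, and that at 7 weeks against normal diet -0.0057 for Dnajc1; the median of all genes moved to -1.09 and -1.07 there. With the mean over probes, 7 against 3 weeks became -0.39 for Dnajb6 and -1.81 for Dnajc11. With normexp, Dnajb8 was 0.099 for 7 against 3 weeks and Hspb2 0.093 at 7 weeks against normal diet. Leaving out 1 array at a time, Dnajc5b ranged over -0.88 to 1.88 and -1.62 to 1.15 in those comparisons, the lowest without 7 week replicate 1. The causes were not tested. Signal over background limits the dim members, of which 9 were not tested. Dnajb8, Dnajc28, Hspb2, Hspb3 and Hspb7 were not well above background on any 7 week array. Of these only Dnajc28 had a fold bound above 1.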
